A study of Mus musculus with 16 samples.

Results

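The genes described here are 45 messages that have been reported as targets of the miR-200 microRNAs, leaving aside the best known ones, the Zeb transcription factors and the coat protein gene Sec23a. They were taken from a fixed list of gene names and not by a rule on their values. The list was chosen with earlier results of these data known. Each gene was looked up among the 27670 genes with a probe on a mouse Agilent array. All 45 had a probe. A total of 42 gave a signal well above background on both arrays of at least 1 group and were tested among 19017 genes. Such a filter lets a gene pass through the group where it is brightest, so the counts below describe the measurable members and not the whole list. Jag2, a Notch ligand, was not well above background on any array, Hoxb5, a homeobox factor, was so on 2 arrays and Adam12, a metalloprotease, on 1 array for its better probe, and these 3 have no test.

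MicroRNAs are short RNAs that pair, through a seed near their 5′ end, with matching sites that lie mostly in the 3′ untranslated regions of messages, and so lower the stability or translation of those messages. The miR-200 family is abundant in epithelial cells and is lost when cells turn mesenchymal; by repressing the Zeb factors it lifts the block on Cdh1, which encodes the adhesion protein E-cadherin. Its other reported targets reach into VEGF and Notch signalling, Polycomb chromatin and the actin cytoskeleton, where single repressed messages have been linked to invasion, stemness and vessel growth.

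All cells were 4TO7, a mouse mammary carcinoma line, grown with 10% FBS and infected with pMSCV retroviral vectors. The 8 groups of 2 arrays were Cluster 1 and its Puro vector, Cluster 2 and its Hygro vector, Clusters 1+2 and the double Hygro+Puro vector, and CDH1 with a Puro vector of its own. Each cluster is a stretch of genome that encodes several miR-200 family members, and CDH1 cells received E-cadherin without a miRNA. The sources used here do not say which microRNAs the numbers 1 and 2 stand for, or whether the lines were clones or pools. The design calls the 2 repeats of a group biological replicates.

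The mouse family has 5 mature members, shown because the seed is what a reported target is thought to pair with. They are given from the 5′ end, from RefSeq on build GRCm38.p6, with the seed (bases 2 to 8) in capitals.
mmu-miR-200b-3p: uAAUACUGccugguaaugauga
mmu-miR-429-3p: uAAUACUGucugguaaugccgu
mmu-miR-200c-3p: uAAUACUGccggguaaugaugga
mmu-miR-200a-3p: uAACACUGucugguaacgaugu
mmu-miR-141-3p: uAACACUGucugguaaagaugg
The first 3 share the seed AAUACUG and the last pair the seed AACACUG, which differ by U4C, counted from the 5′ end of the microRNA. miR-200b (chr4:156055685-156055706), miR-200a (chr4:156054911-156054932) and miR-429 (chr4:156053916-156053937) lie together on the minus strand of chromosome 4. miR-200c (chr6:124718324-124718346) and miR-141 (chr6:124717917-124717938) lie on the minus strand of chromosome 6. Each genomic cluster therefore holds both seeds.

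The DNA letters that pair with these seeds are CAGTATT and CAGTGTT. They were looked for on the message strand of the array's own 60-base probes, the sequence of these messages that was at hand. CAGTATT occurs in 249 of 41174 probes (0.605%) and CAGTGTT in 332 (0.806%). Among the 42 probes that stood for a tested member, 3 hold CAGTATT and 1 holds CAGTGTT. The stretches are shown with the matches in capitals, because the 3 genes that carry them did not give the same values.
Rnd3: ttggtCAGTGTTtccaCAGTATTtatta
Msn: aagaagatttCAGTATTagcgacttacc
Tubb3: taaagtccttCAGTATTtatggccaccc
Rnd3, whose probe at chr2:51137786-51137845 (build mm7, minus strand) carries a match to each seed, was higher with Clusters 1+2, as described with its values further on. Msn, with 1 match in the probe at chrX:91495434-91495493, fell by 0.31 on the log2 scale. Tubb3, with 1 match at chr8:122062871-122062930, did not pass the test (0.13, adjusted p = 0.148). A match is a description of these letters and was not tested as a site, and a probe without one says nothing about the rest of its message.

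The sample carried Cy3 on 8 arrays (Cluster 2, Clusters 1+2 and their vectors, with repeat A on slide 1 and repeat B on slide 2) and Cy5 on the other 8 (CDH1 and its vector on slide 3, Cluster 1 and its vector on slide 4). Levels are therefore compared within a slide pair, as each overexpression against its own vector, and a difference between effects on different slides cannot be told apart from slide and dye. The share of probes well above background ran from 30.6% to 69.1% per array and the median absolute log2 difference between repeats was 0.0826 to 0.108. Of the known targets, Zeb2 fell by 0.39 in Cluster 1 (adjusted p = 0.0605 without the Cluster 1 array A and 0.0657 without the Puro vector for Cluster 1 array B), by 0.77 in Cluster 2 and by 2.10 in Clusters 1+2. Sec23a fell by 1.20 in Clusters 1+2, and Zeb1 gave 0.00 there (adjusted p = 0.996). Cdh1 rose by 1.21, 1.93 and 2.86 in the same order, and in CDH1 cells it was 0.61 higher than in a vector whose arrays were not well above background for it (adjusted p = 0.00567, and 0.0696 without the CDH1 array B). Of 7 epithelial markers, Krt8 and Krt18 were detected on all 16 arrays, as were 6 of 7 fibroblast or mesenchymal markers. All 7 epithelial markers rose in Clusters 1+2, from 0.85 for Krt8 to 3.23 for Epcam, and 4 of them (Krt8, Krt18, Cdh1 and Epcam) rose in each single cluster. With spots marked by the software kept, Cdh1 in Cluster 1 (adjusted p = 0.579) and Epcam in Cluster 1 (0.999) and Cluster 2 (0.759) lost their call. So did Zeb2 in Cluster 1 (-0.20) and in Cluster 2 (adjusted p = 0.119). Epcam in Cluster 2 also lost its call with processed signals (0.123) or arrays scaled to a common spread (0.103). Of the mesenchymal markers, Vim fell by 0.87 and Pdgfra by 1.69 in Clusters 1+2. The others, Col1a1, Col1a2, Fn1, Thy1 and Pdgfrb, were not called there, with values from -0.25 to 0.00. Pdgfra fell by 0.60 in Cluster 2, and Pdgfra (-1.07), Fn1 (-1.13) and Thy1 (-0.50) fell with CDH1, as did Krt8 (-0.55). The part of these shifts in the members' values was not tested. None of 8 endothelial markers was detected on all 16 arrays, though Tek, Esam and Cldn5 were on 14, and none of the 7 tested passed the test in any comparison with its own vector.

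Most calls among the members were made in Clusters 1+2. Of 42 tested members, 17 fell and 4 rose in Clusters 1+2 against the double vector, where 12.7% of all genes fell and 12.1% rose (24.8% in either direction). In Cluster 1, 5 fell and 1 rose (3.4% and 4.83% of all genes, 8.23% in either direction), and in Cluster 2, 4 fell and 1 rose (1.06% and 1.78%, 2.85% in either). With CDH1, 4 fell and 4 rose, beside 6.78% and 7.67% of all genes (14.4% in either direction). The median over the 42 members was -0.10 in Clusters 1+2, -0.04 in Cluster 1, -0.05 in Cluster 2 and -0.03 with CDH1, beside 0.00444, 0.00466, -0.00211 and 0.0058 over all genes. Calls rest on limma's adjusted p under 0.05 over all genes. For each of the 21 members called in Clusters 1+2 the overexpression arrays did not overlap the vector arrays, Ubqln1 having a value on 1 vector array. The 21 were chosen by a test on these same arrays, so this lack of overlap is a description. Its share over all genes was not counted. Without the Hygro+Puro vector array B the number that fell was 11, it was 10 when arrays were scaled to a common spread, and it was 11 when marked spots were kept. With marked spots kept, Flt1 (adjusted p = 0.0867), Plcg1 (0.0513), Wipf1 (0.435) and Rnd3 (0.328) in Cluster 1 kept their direction but not their call. The same held in Cluster 2 for Flt1 (0.0524), Cfl2 (0.527), Reck (0.527) and Rin2 (0.696). In Clusters 1+2 it held for Trps1 (0.0892), Reck (0.262), Bap1 (0.22), Klhl20 (0.536), Maml3 (0.058) and Msn (0.0857). In bulk RNA, fewer cells that hold a message and less of it per cell cannot be told apart.

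**Figure D1:**
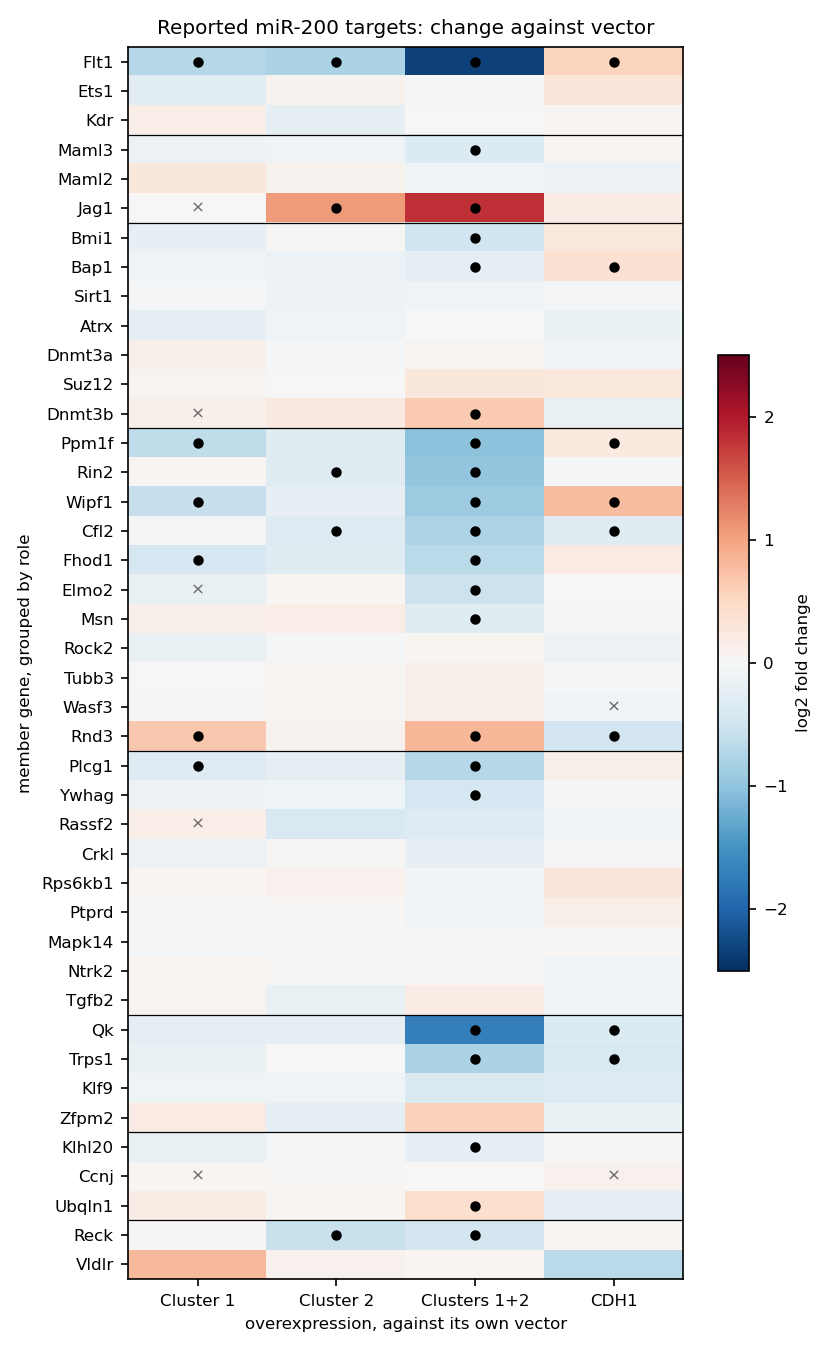
Log2 fold change of each of the 42 tested members (rows, grouped by role) in the 4 overexpressions against their own vectors (columns). A dot marks a call at adjusted p under 0.05 and a cross a pair of groups that was not well above background on any array; the Clusters 1+2 column holds 21 dots, 17 of them on genes that fell, against 6, 5 and 8 in Cluster 1, Cluster 2 and CDH1.

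Among the VEGF receptors and their transcriptional regulator, Flt1 fell and the other 2 did not pass the test in any miR-200 comparison. Flt1 encodes VEGFR1, a receptor for VEGF-A and placental growth factor, and its probe lies at chr5:146456619-146456678 (mm7). The log2 ratio of sample to reference for Flt1 was 0.96 and 0.85 on the double vector arrays and -1.48 and -1.39 on the Clusters 1+2 arrays. On the Hygro vector it was 1.01 and 1.00 and in Cluster 2 0.18 and 0.25, and on the Puro vector for Cluster 1 0.04 and 0.08 and in Cluster 1 -0.64 and -0.66. All 3 overexpressions lay below both arrays of their vector, and Clusters 1+2 lay farthest below. Flt1 fell by 2.34 in Clusters 1+2 (SE 0.0679, adjusted p = 3.61e-10, a 5.06-fold fall), by 0.79 in Cluster 2 (adjusted p = 2.58e-05) and by 0.71 in Cluster 1 (adjusted p = 4.83e-05). On this probe Flt1 was called lower in both single clusters. In Cluster 1 the other 2 Flt1 probes gave 0.14 and -0.22 (adjusted p over probes 0.585 and 0.468), and in Cluster 2 -0.58 (0.00871) and 0.09 (0.839). Against the other Puro vector the Cluster 1 value was -0.21 (adjusted p = 0.0771). Within slide 1 the Clusters 1+2 difference was -2.44 and within slide 2 -2.24. Kdr, which encodes VEGFR2, gave 0.01 in Clusters 1+2 (adjusted p = 0.962), and Ets1, a transcription factor of endothelial and mesenchymal genes, gave -0.05 (adjusted p = 0.773).

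The rest of the VEGF and angiopoietin pathway, 14 further genes of which 10 were tested, had 1 gene that rose and 3 that fell in Clusters 1+2 (10% and 30%, beside 12.1% and 12.7% of all genes). Pdgfb, a growth factor for pericytes, rose by 2.73 (adjusted p = 8.01e-08), with 1 of its 2 vector arrays well above background. Angpt2, an antagonist of the Tie2 receptor, fell by 0.95 (adjusted p = 1.38e-05), and Vegfa, the ligand of both receptors, by 0.52 (adjusted p = 4.85e-05). With CDH1 alone 6 of the 10 fell, beside 6.78% of all genes, Vegfa by 0.83 and Angpt2 by 0.80 among them.

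In the Notch group a ligand rose. Jag1 encodes the Notch ligand Jagged1, and its probe lies at chr2:136822550-136822609 (mm7). Its log2 ratio was -0.08 and -0.10 on the double vector arrays and 1.78 and 1.70 on the Clusters 1+2 arrays, and it was 0.10 and 0.12 on the Hygro vector and 1.17 and 1.18 in Cluster 2. The overexpression arrays lay above the vector arrays in both comparisons. Jag1 rose by 1.83 in Clusters 1+2 (SE 0.0896, adjusted p = 1.89e-08) and by 1.07 in Cluster 2 (adjusted p = 2.14e-05). It was not well above background on any of the 4 arrays of Cluster 1 and its vector, where it lay between -0.31 and -0.09, so Cluster 1 gives no measured change. Of the Mastermind-like coactivators, which bind the Notch transcription complex, Maml3 was called lower in Clusters 1+2 (-0.34, adjusted p = 0.021). Its Clusters 1+2 arrays were not well above background, so the size of the fall is uncertain. Without the Hygro+Puro vector array B its adjusted p was 0.19 and without the Clusters 1+2 array B 0.144. Maml2 gave -0.10 (adjusted p = 0.767).

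Of 28 other Notch pathway genes 25 were tested, and 3 rose and 2 fell in Clusters 1+2, together a smaller share than the 24.8% of all genes. The receptor Notch1 fell by 2.35 (adjusted p = 9.34e-10) and by 0.65 in Cluster 2 (adjusted p = 0.000423), Psen2, a subunit of the protease that cleaves Notch, rose by 1.13 (adjusted p = 3.15e-07), and the coactivator Maml1 fell by 0.60 (adjusted p = 0.00168).

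Of the 7 chromatin members, 1 rose and 2 fell in Clusters 1+2 (14.3% and 28.6%, beside 12.1% and 12.7% of all genes). Dnmt3b, a de novo DNA methyltransferase, had log2 ratios of -0.09 and -0.11 on the double vector arrays and 0.58 and 0.53 in Clusters 1+2. In Cluster 2 it was 0.18 and 0.17 beside -0.03 and -0.08 on its vector, and its 4 Cluster 1 and vector arrays were not well above background. Dnmt3b rose by 0.65 in Clusters 1+2 (SE 0.069, adjusted p = 1.57e-05), with its Cluster 2 value of 0.23 short of the threshold (adjusted p = 0.111). Its paralogue Dnmt3a gave 0.07 (adjusted p = 0.566).

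Bmi1, a core protein of Polycomb repressive complex 1 and a stemness gene, fell by 0.49 in Clusters 1+2 (SE 0.0869, adjusted p = 0.00108), a call that held when any 1 array was left out. A second Bmi1 probe, well above background on 15 arrays like the first, gave -0.02 (SE 0.0909). Bap1, a deubiquitinase of histone H2A, had log2 ratios of 0.16 and 0.23 on the double vector and -0.02 and -0.10 in Clusters 1+2, groups that did not overlap. It fell by 0.25 (adjusted p = 0.0344), but no call remained when any 1 of the 4 arrays was left out: the adjusted p was 0.0572 without the Hygro+Puro vector array A, 0.173 without array B, 0.0655 without the Clusters 1+2 array A and 0.189 without array B. Suz12, a subunit of Polycomb repressive complex 2, gave 0.28 (adjusted p = 0.111), Sirt1, a histone deacetylase, -0.10 (adjusted p = 0.64), and Atrx, a chromatin remodeller, 0.00 (adjusted p = 0.984). Among 25 tested genes of the Polycomb and DNA methylation list, 2 rose and 4 fell in Clusters 1+2, a share near the 24.8% of all genes. Mtf2, a partner of Polycomb repressive complex 2, fell by 0.71 and Pcgf6, a paralogue of Bmi1, rose by 0.43.

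In the actin and cytoskeleton group, the one with the most members, 7 of 11 fell and 1 rose in Clusters 1+2 (63.6% and 9.09%, beside 12.7% and 12.1% of all genes), with a median of -0.53. Ppm1f, a phosphatase that switches off p21-activated kinases, had log2 ratios of -0.04 and -0.10 on the double vector arrays and -1.10 and -1.08 in Clusters 1+2. It was -0.10 and -0.20 on the Puro vector for Cluster 1 and -0.86 and -0.69 in Cluster 1, and -0.02 and -0.05 on the Hygro vector and -0.35 and -0.31 in Cluster 2. In all 3 comparisons the groups lay apart in the same direction. Ppm1f fell by 1.02 in Clusters 1+2 (SE 0.073, adjusted p = 5.29e-07) and by 0.63 in Cluster 1 (adjusted p = 0.000215), while Cluster 2 gave -0.30 (adjusted p = 0.0518).

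Rin2, an exchange factor for the endosomal GTPase Rab5, had log2 ratios of 1.18 and 1.17 on the double vector and 0.16 and 0.24 in Clusters 1+2. In Cluster 1 it was 1.18 and 1.21 beside 1.11 and 1.20 on its vector, groups that overlapped. Rin2 fell by 0.98 in Clusters 1+2 (SE 0.0732, adjusted p = 7.69e-07) and gave 0.04 in Cluster 1 (adjusted p = 0.849). It was called lower in Cluster 2 at -0.31 (adjusted p = 0.0442). That call was lost with the slide as a block (adjusted p = 0.0841) and without the Hygro vector array B (0.338) or the Cluster 2 array A (0.213) or B (0.0818).

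Wipf1, which stabilises the actin nucleation promoter N-WASP, had log2 ratios of 0.36 and 0.45 on the double vector and -0.53 and -0.48 in Clusters 1+2. It was 0.65 and 0.58 on the Puro vector for Cluster 1 and -0.12 and 0.19 in Cluster 1, also apart. Wipf1 fell by 0.91 in Clusters 1+2 (SE 0.0903, adjusted p = 9.64e-06) and by 0.58 in Cluster 1 (adjusted p = 0.00167). Against the other Puro vector, the control of CDH1, the Cluster 1 value turned to 0.54 (adjusted p = 0.00229), because the 2 Puro controls differ in Wipf1 by 1.12 (adjusted p = 1.02e-05). The direction of Wipf1 in Cluster 1 thus depended on the control.

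Cfl2, a cofilin that severs actin filaments, had log2 ratios of -0.31 and -0.40 on the double vector and -1.15 and -1.09 in Clusters 1+2. It was -0.47 and -0.29 on the Hygro vector and -0.71 and -0.71 in Cluster 2, and 0.27 and 0.25 on the Puro vector for Cluster 1 beside 0.25 and 0.15 in Cluster 1. Cfl2 fell by 0.77 in Clusters 1+2 (SE 0.0763, adjusted p = 9.75e-06). The Cluster 2 call at -0.33 (adjusted p = 0.037) was lost with the slide as a block (0.121) and without the Hygro vector array B (0.342) or the Cluster 2 array A (0.106) or B (0.165), and Cluster 1 gave -0.05.

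Fhod1, a formin that bundles actin, had log2 ratios of 0.55 and 0.57 on the double vector and -0.09 and -0.14 in Clusters 1+2. It was 0.88 and 0.86 on the Puro vector for Cluster 1 and 0.33 and 0.55 in Cluster 1. Fhod1 fell by 0.68 in Clusters 1+2 (SE 0.0776, adjusted p = 3.27e-05) and by 0.42 in Cluster 1 (adjusted p = 0.00474), the latter with an adjusted p of 0.0587 without the Cluster 1 array A. Elmo2, which with Dock proteins activates Rac, fell by 0.53 in Clusters 1+2 (adjusted p = 0.00105). That call was lost with a background offset of 10 (0.115), processed signals (0.6) or arrays scaled to a common spread (0.0687). Msn, the membrane-to-actin linker moesin, fell by 0.31 in Clusters 1+2 (adjusted p = 0.0302). Msn lost its call with the slide as a block (0.0906) and without the Hygro+Puro vector array B (-0.14, adjusted p = 0.308) or the Clusters 1+2 array A (0.129) or B (0.0891).

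Rnd3, an atypical small GTPase that loosens actin stress fibres, was the member of the group that rose. Its log2 ratio was -2.22 and -2.01 on the double vector and -1.28 and -1.29 in Clusters 1+2, and it was -1.22 and -1.54 on the Puro vector for Cluster 1 and -0.72 and -0.68 in Cluster 1. Both overexpressions lay above their vector. Rnd3 rose by 0.83 in Clusters 1+2 (SE 0.108, adjusted p = 8.95e-05) and by 0.68 in Cluster 1 (adjusted p = 0.00197), and Cluster 2 gave 0.08 (adjusted p = 0.814). Against the CDH1 Puro vector the Cluster 1 rise was 0.45 (adjusted p = 0.0208). The remaining 3 of the group, Rock2, Wasf3 and the tubulin Tubb3, lay between 0.04 and 0.14 in Clusters 1+2 and passed no test.

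In growth signalling, 2 of 9 members fell in Clusters 1+2 (22.2%, beside 12.7% of all genes). Plcg1, phospholipase C gamma 1, had log2 ratios of 0.02 and 0.10 on the double vector and -0.68 and -0.63 in Clusters 1+2, and 0.54 and 0.54 on the Puro vector for Cluster 1 and 0.24 and 0.17 in Cluster 1. Plcg1 fell by 0.71 in Clusters 1+2 (SE 0.0688, adjusted p = 7.41e-06) and by 0.33 in Cluster 1 (adjusted p = 0.0104). The Cluster 1 value was 0.01 against the other Puro vector (adjusted p = 0.975), and its call was lost without the Cluster 1 array B (0.0756) or the Puro vector for Cluster 1 array A (0.0566) or B (0.0606). A second Plcg1 probe, well above background on 15 arrays, gave 0.03 in Clusters 1+2. Ywhag, the 14-3-3 gamma adaptor, fell by 0.44 in Clusters 1+2 (adjusted p = 0.0101), with an adjusted p of 0.104 without the Hygro+Puro vector array B and 0.0503 without the Clusters 1+2 array B. The other 7, the adaptor Crkl, the kinases Rps6kb1 and Mapk14, the receptors Ntrk2 and Ptprd, the cytokine Tgfb2 and Rassf2, passed no test in the 3 miR-200 comparisons.

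In the transcription and RNA group, 2 of 4 tested members fell in Clusters 1+2 (50%, beside 12.7% of all genes). Qk encodes Quaking, an RNA-binding protein of splicing and circular RNA formation, and its probe lies at chr17:8929022-8929081 (mm7). Its log2 ratio was -0.37 and -0.49 on the double vector arrays and -2.25 and -2.04 in Clusters 1+2. It was -0.46 and -0.56 on the Hygro vector and -0.75 and -0.76 in Cluster 2, and -0.69 and -0.70 on the Puro vector for Cluster 1 and -0.92 and -0.96 in Cluster 1. Each single cluster lay a little below its vector and Clusters 1+2 far below. Qk fell by 1.71 in Clusters 1+2 (SE 0.0865, adjusted p = 2.58e-08, a 3.28-fold fall), while neither Cluster 1 (-0.25, adjusted p = 0.117) nor Cluster 2 (-0.24, adjusted p = 0.199) passed the test.

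Trps1, a GATA-type repressor, had log2 ratios of 0.79 and 0.69 on the double vector and -0.08 and -0.05 in Clusters 1+2, and 0.70 and 0.85 on the Hygro vector beside 0.83 and 0.70 in Cluster 2. The single Cluster 2 arrays overlapped their vector and the Clusters 1+2 arrays did not. Trps1 fell by 0.80 in Clusters 1+2 (SE 0.113, adjusted p = 0.000182) and gave -0.01 in Cluster 2 and -0.18 in Cluster 1. Klf9, a Krüppel-like factor, gave -0.36 (adjusted p = 0.0555) and Zfpm2, a GATA cofactor, 0.58 (adjusted p = 0.0597). With the slide as a block both passed, at -0.36 (adjusted p = 0.0211) and 0.58 (adjusted p = 0.00374). A second Zfpm2 probe, well above background on 6 arrays, gave 0.01 in Clusters 1+2 (adjusted p = 0.988 over probes).

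Of the remaining members, Ubqln1, a ubiquitin-like shuttle to the proteasome, was called higher in Clusters 1+2 (0.41, adjusted p = 0.0219) on a single vector array, whose spread is taken from the other groups. Its log2 ratio was -0.42 on the 1 double vector array with an unmarked spot and -0.02 on both Clusters 1+2 arrays, and the adjusted p was 0.0697 or 0.0716 without the Clusters 1+2 array A or B. Klhl20, a substrate adaptor of the Cul3 ubiquitin ligase, fell by 0.21 (adjusted p = 0.044), a call that no array could be left out of: the adjusted p was 0.0646 and 0.206 without the Hygro+Puro vector array A and B and 0.12 and 0.174 without the Clusters 1+2 array A and B. It was 0.0735 with the slide as a block. Reck, a membrane inhibitor of matrix metalloproteases, fell by 0.55 in Cluster 2 (adjusted p = 0.0125) and by 0.45 in Clusters 1+2 (adjusted p = 0.00617). It was well above background on 1 of 2 arrays in both overexpressions. Without the Hygro vector array B or the Cluster 2 array A the Cluster 2 adjusted p was 0.107 or 0.0609, and without the Hygro+Puro vector array B or the Clusters 1+2 array A that of Clusters 1+2 was 0.0534 or 0.0543. Ccnj, a cyclin, and Vldlr, a lipoprotein receptor, passed no test.

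In all, 21 of the 42 tested members passed the test in none of the 3 miR-200 comparisons, and the matching share of all genes was not counted. The values of these 21 members ran from -0.36 to 0.58 in Clusters 1+2. They ran from -0.26 to 0.82 in Cluster 1 and from -0.38 to 0.11 in Cluster 2. A missed threshold does not show that a message did not change. Only 21 of the 42 were well above background on all 16 arrays, and both Cluster 1 groups were dim for Jag1, Dnmt3b, Elmo2, Rassf2 and Ccnj.

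**Figure D2:**
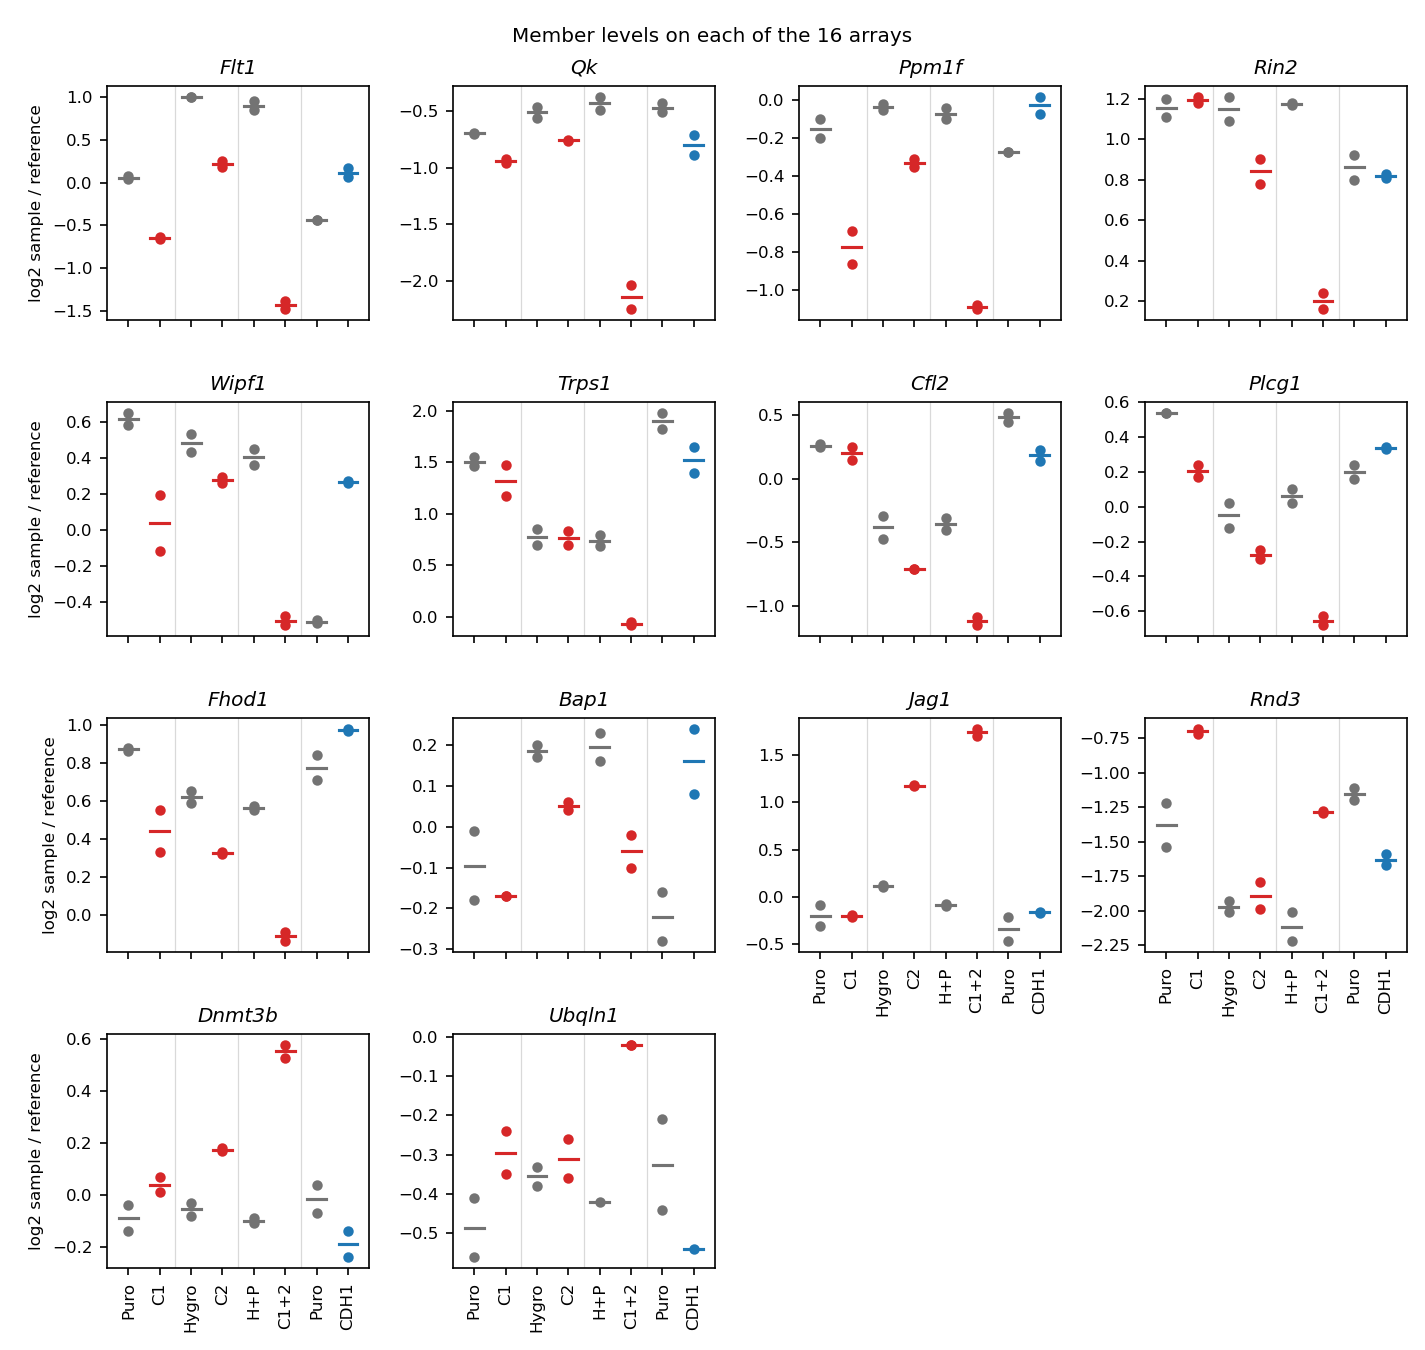
Log2 ratio of sample to reference on each array (points) and the group mean (bars) for 14 members, in the order Puro vector and Cluster 1 (C1), Hygro vector and Cluster 2 (C2), Hygro+Puro vector (H+P) and Clusters 1+2 (C1+2), Puro vector and CDH1. Vectors are grey, miR-200 groups red and CDH1 blue; Flt1 stands at -1.48 and -1.39 in C1+2 and Jag1 at 1.78 and 1.70, each apart from all 14 other arrays.

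The effect of both clusters was then set against that of each. Of the 17 members that fell in Clusters 1+2, 16 had a more negative value there than in either single cluster, the exception being Reck, and 14 had a more negative value than the sum of both single clusters. These counts are a description, since the 17 were chosen for low values in Clusters 1+2. The difference between the Clusters 1+2 and Cluster 2 effects, measured on the same slides and dye, was called lower for 10 members and higher for 3 (3.35% and 2.92% of all genes, 6.26% in either direction). Against the Cluster 1 effect, on other slides and dye, it was called lower for 9 and higher for 2 (8.38% and 7.26%, 15.6% in either). Of the 17, 7 were called against both single clusters, and the share of all genes called against both was not counted. These differences share the Clusters 1+2 arrays, so they are not independent of each other. Of the 10 lower against Cluster 2, the values of Bmi1, Cfl2 and Plcg1 had adjusted p of 0.0554, 0.0938 and 0.0554 with the slide as a block. The count against Cluster 1 was 4 without the Clusters 1+2 array A, and the counts fell to 2 against Cluster 2 and 4 against Cluster 1 when arrays were scaled to a common spread.

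The size of the step differed between members. For Flt1 the Clusters 1+2 effect lay 1.55 log2 units below that of Cluster 2 (SE 0.096, adjusted p = 5.04e-06) and 1.63 below that of Cluster 1. For Qk it lay 1.47 below each of them (adjusted p = 2.12e-05 against Cluster 2), and for Rin2 0.67 below Cluster 2 and 1.02 below Cluster 1. Ppm1f, which already fell in Cluster 1, stepped down by 0.39 from there (adjusted p = 0.0215); this difference turned to 0.10 when arrays were scaled to a common spread. For Fhod1 and Wipf1 the step from Cluster 1 was -0.25 (adjusted p = 0.158) and -0.33 (adjusted p = 0.109). On the side of the rises, Jag1 stepped up by 0.76 from Cluster 2 (adjusted p = 0.00299), and Rnd3 by 0.75 from Cluster 2 (adjusted p = 0.0105) and 0.16 from Cluster 1 (adjusted p = 0.584). The steps of Jag1, Rnd3 and Rin2 from Cluster 2 lost their call with processed signals (adjusted p = 0.641, 0.0559 and 0.0736). They also lost it with a common spread (0.2, 0.612 and 0.136) and with marked spots kept (0.0613, 0.21 and 0.0808). Jag1 lost it with an offset of 10 (0.0906) and Rnd3 with median centring (0.0687).

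A direct test of Clusters 1+2 against the sum of both single effects, added after these values had been seen, called 3 members lower and 1 higher, beside 2.45% and 1.42% of all genes (3.87% in either direction). Qk lay 1.22 log2 units below the sum (SE 0.15, adjusted p = 0.00073), Flt1 0.84 below (adjusted p = 0.00175) and Rin2 0.71 below (adjusted p = 0.00751). Jag1 lay 0.76 above (adjusted p = 0.0164), a sum that includes a Cluster 1 value not above background. Zeb2 also lay below its sum, by 0.94 (adjusted p = 0.00152). The sum sets arrays of both dyes together, and the part of dye and slide in these differences was not tested.

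**Figure D3:**
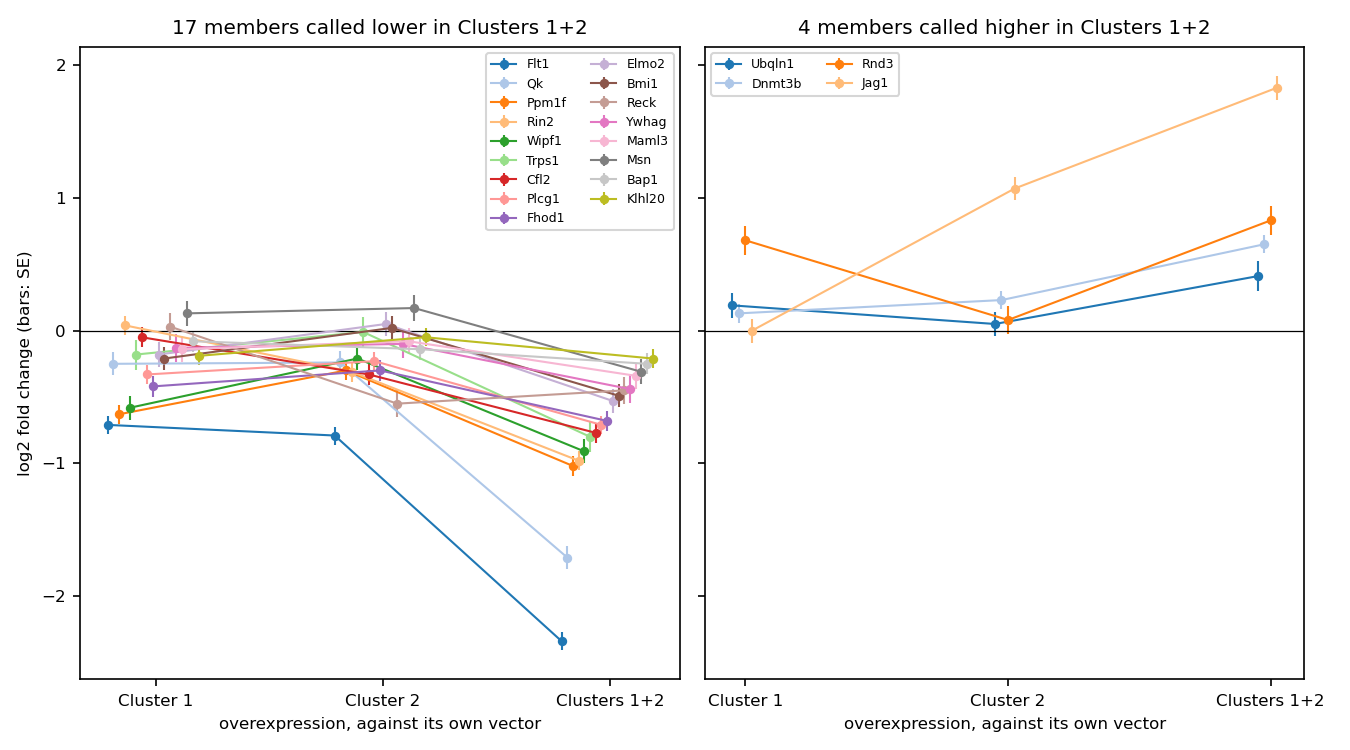
Log2 fold change with its standard error in Cluster 1, Cluster 2 and Clusters 1+2 for the 17 members called lower (left) and the 4 called higher (right) in Clusters 1+2. Lines join 1 gene; Flt1 goes from -0.71 and -0.79 to -2.34 and Qk from -0.25 and -0.24 to -1.71, while Reck is at -0.55 in Cluster 2 and -0.45 in Clusters 1+2.

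With E-cadherin alone, 4 members fell and 4 rose, 9.52% of the 42 in each direction, a share near that of all genes (6.78% and 7.67%). The comparison of CDH1 with its own Puro vector asks which changes appear when the adhesion protein is supplied without the microRNAs. Of the 17 members that fell in Clusters 1+2, 3 also fell with CDH1 (Qk, Trps1 and Cfl2) and 4 rose (Flt1, Wipf1, Bap1 and Ppm1f), and of the 4 that rose, Rnd3 fell. The matching split of all genes was not counted, so these counts are a description. The difference between the effects was called lower for 12 members and higher for 4, beside 9.41% and 8.25% of all genes (17.7% in either direction), on other slides and dye.

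Flt1 had log2 ratios of -0.43 and -0.44 on the CDH1 vector and 0.17 and 0.07 with CDH1, and rose by 0.56 (SE 0.0679, adjusted p = 0.000153). Wipf1 was at -0.50 and -0.52 and at 0.27 and 0.26, and rose by 0.77 (SE 0.0903, adjusted p = 0.00011). Bap1 was at -0.28 and -0.16 and at 0.08 and 0.24, and rose by 0.38 (adjusted p = 0.00698). In these 3 genes the groups lay apart in the direction opposite to Clusters 1+2. The rises of Wipf1 and Flt1 rest on this control: on the other Puro vector, on another slide, Wipf1 stood at 0.65 and 0.58, above the CDH1 arrays, and Flt1 at 0.04 and 0.08, overlapping them. Ppm1f, at -0.27 on both vector arrays and 0.02 and -0.07 with CDH1, rose by 0.24 (adjusted p = 0.0433), a call lost without any 1 of the 4 arrays (adjusted p 0.0769 to 0.228).

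On the other side, Rnd3 was at -1.11 and -1.20 on the vector and -1.59 and -1.67 with CDH1, and fell by 0.48 (adjusted p = 0.00962). Qk was at -0.43 and -0.51 and at -0.71 and -0.89 and fell by 0.34 (adjusted p = 0.0204), Trps1 at 1.82 and 1.98 and at 1.39 and 1.65 and fell by 0.38 (adjusted p = 0.04), and Cfl2 at 0.52 and 0.45 and at 0.14 and 0.23 and fell by 0.30 (adjusted p = 0.0196). None of these groups overlapped, but under median centring in place of loess none of the 4 falls passed the test, and Trps1 turned to 0.06 with marked spots kept. Bap1 lost its CDH1 call without the vector array A (0.0599) or the CDH1 array B (0.0827), Rnd3 without the same arrays (0.0673 and 0.0795), Qk without the vector array A (0.113) or B (0.0524) or the CDH1 array B (0.191), and Trps1 without the vector array A (0.0585) or B (0.239) or the CDH1 array A (0.285). Cfl2 lost it without any 1 array (0.05 to 0.124). Jag1 gave 0.18 with CDH1 (adjusted p = 0.228), on groups where 1 of 4 arrays was above background. Flt1 averaged over its 3 probes gave 0.05 (adjusted p = 0.732), its other 2 probes giving 0.04 and -0.44.

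**Figure D4:**
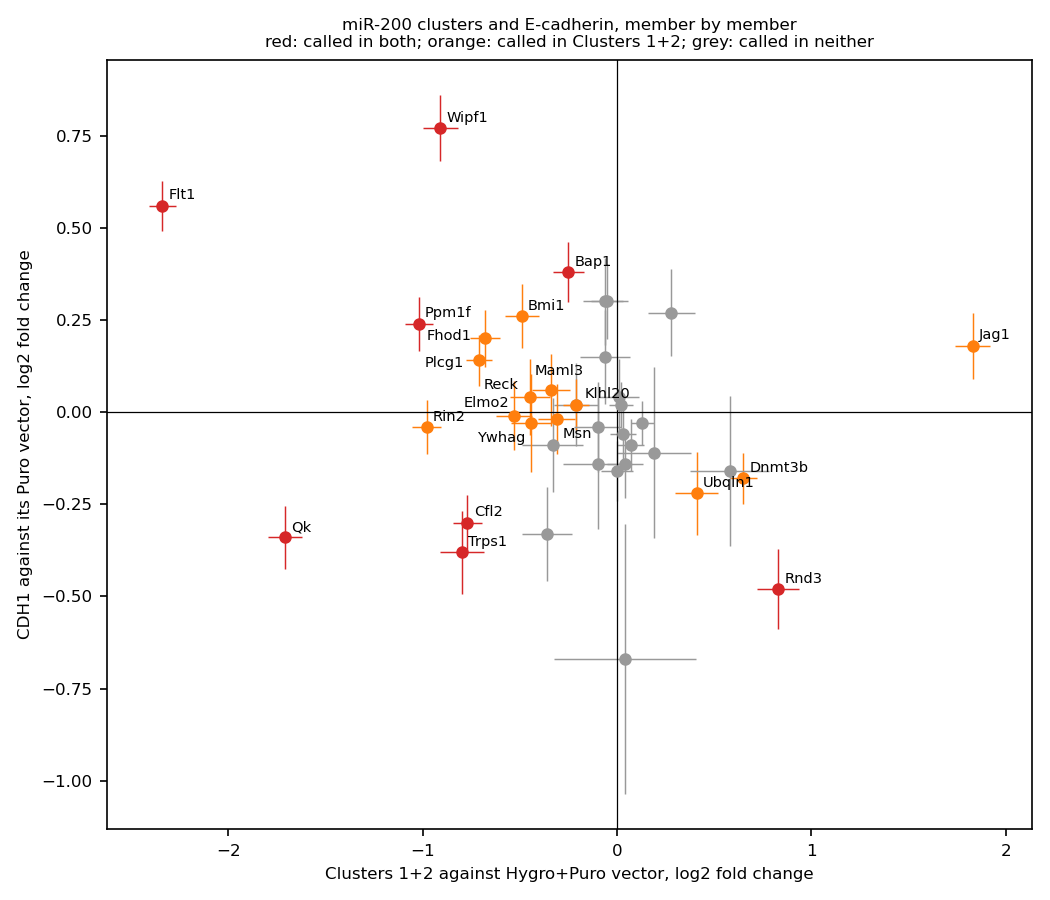
Log2 fold change with CDH1 (vertical) against that with Clusters 1+2 (horizontal), each with its standard error, for the tested members above background in the CDH1 comparison. Red points were called in both comparisons, orange in Clusters 1+2 and grey in neither; Flt1 (-2.34, 0.56) and Wipf1 (-0.91, 0.77) lie in the upper left, Qk (-1.71, -0.34) in the lower left and Rnd3 (0.83, -0.48) in the lower right.

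The 2 Puro vector groups, alike by label and on different slides, differed in 6 members, 4 higher and 2 lower in the control of Cluster 1, where 4.86% and 5.15% of all genes differed in each direction (10% in all). Beside Wipf1 these were Flt1 (0.49, adjusted p = 0.000544), Plcg1 (0.34, adjusted p = 0.00735), Rin2 (0.29, adjusted p = 0.0235), Kdr (-0.53, adjusted p = 0.00568) and Trps1 (-0.40, adjusted p = 0.0429). With the other control in place of its own, Cluster 1 gave 7 members lower and 3 higher (3.82% and 4.77% of all genes, 8.59% in either direction). Ppm1f (-0.51, adjusted p = 0.00089) and Fhod1 (-0.33, adjusted p = 0.0189) were lower there too, and Flt1 and Plcg1 were not called. Qk (-0.47, adjusted p = 0.00434), Trps1 (-0.59, 0.00622), Klhl20 (-0.28, 0.0232), Cfl2 (-0.28, 0.0394) and Kdr (-0.36, 0.0489) were called lower only against this control. Rin2 was called higher only against it (0.33, adjusted p = 0.0126). The Cluster 1 calls of these genes thus depended on the control.

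Probes of 1 gene did not always give 1 value. A total of 24 of the 42 members had more than 1 probe that passed the filter. All 3 probes of Trps1 gave nearly 1 value in Clusters 1+2 (-0.80, -0.81 and -0.85). Those of Flt1 gave -2.34, -1.94 and -0.82, those of Qk -1.71, -0.82 and -0.67, those of Wipf1 -0.91 and -1.54 and those of Rnd3 0.83, 0.63 and 0.35, with 1 sign within each gene. The weakest Flt1 probe lies at chr5:146532609-146532668, far upstream of the other 2 in this minus-strand gene. Disagreement in sign or call was seen for Bmi1 and Plcg1 as given above, and for Elmo2 (-0.53 on a probe above background on 9 arrays and -0.15 on one above it on 15), Ubqln1 (0.41, 0.34, -0.07 and, on 5 arrays, 0.39), Crkl (-0.21, 0.04 and 0.34) and Ets1 (1 of 4 probes at 0.35, adjusted p = 0.00386 over probes, the others between -0.05 and -0.03). A second Ppm1f probe, above background on 7 arrays, gave 0.13. Msn was called on 1 of 3 probes (-0.31, the others -0.13 and -0.18) and Bap1 on 1 of 2 (-0.25, the other -0.08 on 8 arrays), and both lost their call with the mean over probes (adjusted p = 0.155 and 0.128). Klf9 passed on its second probe (-0.38, adjusted p = 0.0146 over probes), and the third Rnd3 probe did not pass (adjusted p = 0.125 over probes). Whether such probes read different transcripts was not tested.

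**Figure D5:**
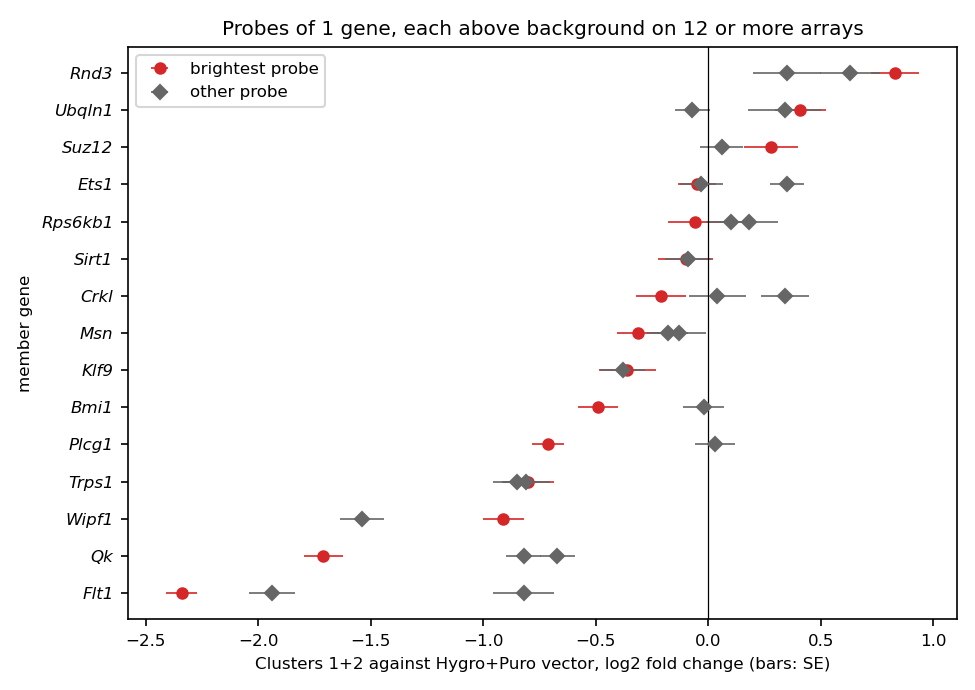
Log2 fold change in Clusters 1+2, with its standard error, for each probe of the 15 members with more than 1 probe well above background on 12 or more arrays. Red circles are the brightest probe, which stands for the gene elsewhere, and grey diamonds the others; the 3 probes of Trps1 coincide near -0.80, those of Flt1 spread from -2.34 to -0.82, and Bmi1 and Plcg1 each have a second probe near 0 (-0.02 and 0.03).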

How the data were processed

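Total RNA (175 ng per labelling) of 4TO7 cells was hybridised against a universal mouse reference RNA (11 cell lines) on 16 arrays of 2 colours. Per the file headers, Agilent Feature Extraction 9.5.3.1 read design 014868 (probe positions on build mm7), and the deposited files give a raw and a processed intensity per spot and channel and a log10 ratio of red over green. The deposited series matrix holds a linear ratio, whose column medians ran from 0.9032 to 1.175 and which matched processed sample over reference within 8.06e-08 in log10, so its direction is known and it is not log-scaled.

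Spots marked by the software were set missing, background was corrected with normexp (offset 50) and arrays were normalised by loess (limma 3.58.1, R 4.3.3). Log2 here is sample over reference. Probes well above background on both arrays of at least 1 group were kept and the brightest stood for a gene. Symbols came from the files or through RefSeq. One limma model with 8 group means gave two-sided tests with Benjamini-Hochberg adjustment over all genes; the error is the difference of repeats, pooled across groups, and may be technical in part. The steps were tested on simulated data.

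Values per array are given for the called members with the 12 largest changes in Clusters 1+2, members called in opposite directions and members called higher with miR-200; from other lists at most 3 called genes are named. Members, lists and tests were chosen with earlier results of these data known. Repeat letters mark the slide on Cy3 arrays; the correlation of A minus B between an overexpression and its vector was 0.274 in Cluster 2 and 0.328 in Clusters 1+2, and -0.0111 in Cluster 1 and 0.0124 with CDH1. Alternatives were other offsets, processed signals, median centring, common spread, no filter, marked spots kept, probe means, blocks by letter or slide, the other Puro control and leaving out arrays. 3′ UTR sequence was not used here. A few results on genes outside the member list are not reported here.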

Additional observations from a re-analysis of the deposited data

Results flagged for a closer look

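The effect of Clusters 1+2 differed, by a test of the difference itself, from at least 1 other effect in 18 members. Over all genes such a difference was called for 6.26% against Cluster 2, 15.6% against Cluster 1 and 17.7% against CDH1. Shares of all genes over several of these comparisons together were not counted, so the joint counts of members are a description. Values are log2 differences, Clusters 1+2 minus the other effect, from limma with adjustment over all genes. Those against Cluster 1 and CDH1 lie across slides and dyes, which cannot be told apart from the difference, and those against Cluster 2 lie on the same slides. All of them share the Clusters 1+2 arrays.

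Against all 3 other effects, the difference was called for 8 members. Against CDH1, Cluster 1 and Cluster 2 in that order it was -2.90, -1.63 and -1.55 for Flt1, -1.38, -1.47 and -1.47 for Qk, and -0.93, -1.02 and -0.67 for Rin2. For Ppm1f it was -1.26, -0.39 and -0.72, for Plcg1 -0.85, -0.38 and -0.49 and for Cfl2 -0.47, -0.71 and -0.44. On the higher side Jag1 stood at 1.64, 1.83 and 0.76 and Dnmt3b at 0.83, 0.52 and 0.42, both on dim arrays in Cluster 1.

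Against CDH1 and Cluster 2, Bmi1 stood at -0.75 and -0.51, Elmo2 at -0.52 and -0.58, Wipf1 at -1.68 and -0.70 and Rnd3 at 1.31 and 0.75. Trps1 differed from Cluster 1 by -0.62 and from Cluster 2 by -0.80. Reck differed from CDH1 by -0.49 and from Cluster 1 by -0.48. Bap1 (-0.63), Fhod1 (-0.88) and Ubqln1 (0.63) differed from CDH1, and Msn (-0.44) from Cluster 1. Several of these calls were lost without 1 array: against Cluster 2, those of Bmi1, Cfl2, Dnmt3b and Elmo2, against Cluster 1, those of Msn, Plcg1, Ppm1f, Reck and Trps1, and against CDH1, those of Elmo2 and Reck.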

How the results depend on the processing

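Counts of members are given as lower or higher with the reported count first. In Clusters 1+2 the 17 lower became 10 with a common spread, 11 with marked spots kept and 11 to 15 without 1 array; the 4 higher ranged from 3 to 5. In Cluster 1 the 5 lower became 2 and the 1 higher became 0 with marked spots kept, and the higher became 3 against the other Puro vector. In Cluster 2 the 4 lower became 2 with an offset of 10, median centring, no filter or the slide as a block, 1 with processed signals or a common spread, 0 with marked spots kept and 1 to 5 without 1 array (1 without the Hygro vector array B). The 1 higher became 0 with processed signals and 3 with median centring. With CDH1 the 4 higher became 10 with median centring, 2 with probe means and 2 to 3 without 1 array, and the 4 lower became 0 with median centring or marked spots kept and 0 to 2 without 1 array (0 without the vector array A).

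Against Cluster 2, the 10 lower became 6 with an offset of 10 or probe means, 3 with processed signals, 2 with a common spread, 4 with marked spots kept and 7 to 10 without 1 array. The 3 higher became 1 with an offset of 10, median centring or marked spots kept and 0 with processed signals or a common spread. Against Cluster 1, the 9 lower became 5 with processed signals or median centring, 4 with a common spread, 3 with marked spots kept and 4 to 8 without 1 array, and the 2 higher became 1 with an offset of 10, processed signals or a common spread. Against CDH1, the 4 higher became 2 with processed signals and the 12 lower ranged from 10 to 14 without 1 array.

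Single values turned sign for Plcg1 (0.01) and Wipf1 (0.54) in Cluster 1 against the other Puro vector, Ppm1f against Cluster 1 with a common spread (0.10) and Trps1 with CDH1 with marked spots kept (0.06). Over 1162 pairs of a called value of a member and an alternative, 872 kept direction and call, 286 lost the call and 4 turned sign. Of the 21 calls in Clusters 1+2, 12 held under each alternative run. Causes were not tested. Median centring moved the median of all genes from -0.00211 to 0.135 in Cluster 2 and from 0.0058 to 0.105 with CDH1. It moved the split of all genes from 338 higher and 202 lower to 2134 and 150 in Cluster 2. The split went from 1457 and 1288 to 3162 and 663 with CDH1, and from 2302 and 2412 to 1394 and 2156 in Clusters 1+2. With the repeat letter as a replicate block, 100 of 102 calls held, calls of Zeb2, Sec23a, Cdh1 and Epcam included. Ppm1f with CDH1 (adjusted p = 0.054) and Msn against Cluster 1 (0.0516) did not hold, and Zfpm2 passed in Clusters 1+2 (0.58, adjusted p = 0.0291). Each group had 2 arrays, and 21 of 42 members were well above background on all 16.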
